A study of Mus musculus with 6 samples.

Results

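A set of 10 genes that hold neutrophils in the bone marrow or guide them out of it was followed in RNA of bone marrow neutrophils, out of 52636 genes listed by the authors. They were taken by symbol, and each of the 10 was found in 1 row. They comprise the chemokine receptors Cxcr4, Cxcr2, Cxcr1, Ccr1, Ccr2 and Cx3cr1, the related receptor Ccrl2, the receptor kinases Grk2 and Grk6, and the adaptor Arrb2. The 6 libraries came from C57BL/6N mice aged 10 weeks, 3 labelled WT and 3 labelled LRP5f/f/Lyz2Cre+, called LRP5-null here. LRP5 is a membrane protein of the LDL receptor family, and the floxed Lrp5 alleles are cut by a Cre recombinase driven from Lyz2, a gene active in monocytes and macrophages as well as in neutrophils. The labels name a Percoll density gradient for the isolation, while the methods of the study state that cells positive for both CD11b and Ly6G were sorted before sequencing. The labels do not say whether each library is 1 mouse or a pool, so the p-values measure the spread between these libraries, which may be technical in part.

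Chemokine receptors are G protein-coupled receptors that steer leukocytes along gradients of chemokines, small secreted proteins. In the marrow, stromal CXCL12 acts on CXCR4 and keeps neutrophils in place, while CXCR2 ligands made by endothelium draw mature cells into the blood. The receptors signal through Gi proteins, and once active they are phosphorylated by receptor kinases such as GRK2 and GRK6 and bound by beta-arrestins such as the product of Arrb2, which uncouple and internalise them.

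Expression was given as TPM, a share of all transcripts in which gene length is taken out, so that levels can be compared between genes. Each library had between 249841492 and 340580330 reads in total. TPM keeps no read counts, and the counting error of single genes is therefore unknown. The 9775 genes whose mean reached 1 TPM were compared with limma on log2(TPM + 1), a scale that understates the change of low genes, and p-values were adjusted by Benjamini-Hochberg over all of them. The neutrophil markers Ly6g, S100a8 and S100a9 were high in every library, Ly6g at 920 to 1104 TPM. Lrp5 itself was at 1.12, 1.31 and 1.42 TPM in WT replicates 1 to 3 and at 1.68, 1.77 and 2.07 TPM in the libraries labelled LRP5-null, so the targeted transcript was not lower where the label says it should be, and each direction below rests on the labels. Lyz2, the gene that carries the Cre, did separate the labels, at 25963 ± 1039 TPM in WT against 13792 ± 375 TPM (SD, n = 3 each, adjusted p = 0.0035, limma). TPM of the whole gene cannot show whether the floxed part was missing. The share of reads from ribosomal RNA was lowest in WT replicates 1 and 2 (1.20% and 1.30%), beside 3.30% for WT replicate 3 and between 2.69% and 2.98% for the LRP5-null label. Genes of GC-rich transcripts were relatively low in WT replicates 1 and 2, with Spearman correlations across 8769 genes of −0.61 and −0.43 between GC content and the deviation of the library from the mean of all 6, against 0.33 to 0.44 in the other libraries. In bulk RNA, fewer cells of a type and less RNA per cell cannot be told apart.

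Cxcr4, the receptor of retention, was the highest of the 10 genes and stood at rank 44 among all genes listed. It was at 1491, 1502 and 1496 TPM in WT replicates 1 to 3, against 1424, 1439 and 1405 TPM in LRP5-null replicates 1 to 3. Every library labelled LRP5-null lay below every WT library, with a narrow spread within each label (SD 5.61 and 17.0 TPM, n = 3 each). Cxcr2, the receptor of release, was at 807, 749 and 771 TPM in WT and at 669, 698 and 735 TPM in the libraries labelled LRP5-null, again without overlap.

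In the mm9 build that the methods name, Cxcr4 lies on chromosome 1 at 130484776 to 130488870 (minus strand) and Cxcr2 on chromosome 1 at 74200563 to 74207812 (plus strand), with Cxcr1 beside it at 74238359 to 74241205 (minus strand). The promoters of Cxcr4 and Cxcr2 are shown because they drive the highest receptor transcripts here and stand for opposite pulls on the cell. The 300 bases from 250 before to 50 after each start site come from RefSeq (GRCm38.p6), at chr1:128592250-128592549 on the minus strand for Cxcr4 and chr1:74153744-74154043 on the plus strand for Cxcr2, printed 5′ to 3′ with motif matches in capitals.
Cxcr4 promoter: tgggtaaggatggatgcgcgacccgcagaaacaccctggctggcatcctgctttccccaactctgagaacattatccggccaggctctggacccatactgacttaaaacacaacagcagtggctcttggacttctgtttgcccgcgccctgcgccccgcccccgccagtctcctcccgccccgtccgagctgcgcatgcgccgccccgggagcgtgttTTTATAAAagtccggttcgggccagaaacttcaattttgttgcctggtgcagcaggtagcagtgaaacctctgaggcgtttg
Cxcr2 promoter: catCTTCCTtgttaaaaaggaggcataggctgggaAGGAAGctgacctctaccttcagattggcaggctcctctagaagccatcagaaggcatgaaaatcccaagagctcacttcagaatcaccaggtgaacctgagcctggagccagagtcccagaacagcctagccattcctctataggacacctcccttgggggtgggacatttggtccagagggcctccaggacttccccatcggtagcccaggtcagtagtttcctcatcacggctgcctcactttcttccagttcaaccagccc
The motifs searched on both strands were TATAAA, the ETS core AGGAAG, the C/EBP motif TTGCNNAA, the RUNX motif TGTGGT and the E-box CACGTG. Cxcr4 held TATAAA on both strands in overlapping matches that begin 32 and 30 bases before the start site, a motif found in 14.2% of 27025 promoters. Cxcr2 held the ETS core at 247 (reverse strand) and 215 bases before the start site, a motif found in 35.1% of promoters. Of the 10 genes, 8 had a promoter in the table. Grk2 and Arrb2 did not. Among the others, Cxcr1, Ccr1 and Cx3cr1 each held 1 RUNX match, at 75, 58 and 54 bases before the start site, a motif of 16.9% of promoters, and 1 of the promoters of Ccrl2 held the ETS core. The C/EBP motif (10.8% of promoters) and the E-box (7.24%) were in none of these promoters. The matches are descriptions of these windows and were not tested as binding sites.

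In the order of levels, Cxcr4 had 1.98 times the TPM of Cxcr2, and it was higher in 6 of 6 libraries. Cxcr2, Arrb2 and Ccr1 followed with means over the 6 libraries of 738, 724 and 685 TPM, and these neighbours did not differ beyond their spread: Cxcr2 was above Arrb2 in 3 of 6 libraries and Arrb2 above Ccr1 in 5 of 6. Grk2 came next at 322 TPM, then Grk6 at 109.7 TPM, Ccrl2 at 43.6 TPM, Cxcr1 at 10.4 TPM, Ccr2 at 1.05 TPM and Cx3cr1 at 0.247 TPM. From Ccr1 downward each gene was above the next in 6 of 6 libraries, by more than 2 SD of their log2 ratio. The marrow neutrophils thus carried transcripts of Cxcr4, Cxcr2 and Ccr1 in quantity, while those of the monocyte receptors Ccr2 and Cx3cr1 were near or below 1 TPM.

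**Figure D1:**
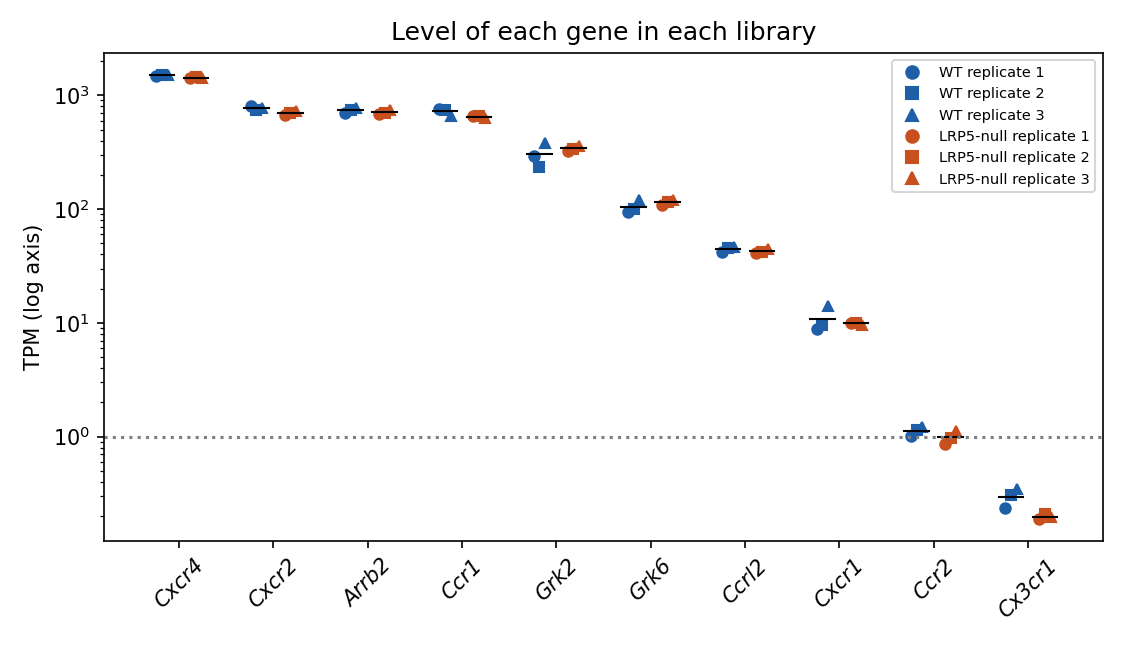
TPM of the 10 genes on a log axis, 1 point per library (blue WT, orange LRP5-null) with a black bar at the mean of each label, and a dotted line at the filter of 1 TPM. The genes run from Cxcr4 at 1460 TPM over all libraries to Cx3cr1 at 0.247 TPM, and the labels lie close together for each gene beside this range.

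In the comparison of the libraries labelled LRP5-null with WT, which asks whether deletion of Lrp5 in myeloid cells alters transcripts of retention and release, none of the 9 genes tested passed the threshold (limma, adjusted p between 0.217 and 0.751). At an unadjusted p under 0.05 there were 0 as well. Over all genes tested, 0.532% (52 genes) had an adjusted p under 0.05, and 23.5% an unadjusted p under 0.05. All 7 receptors had a lower mean TPM under the LRP5-null label, from −4.42% (Ccrl2) to −33.1% (Cx3cr1), except that Cxcr1 turned without WT replicate 3 and Ccr1 and Ccr2 turned on removal of GC and length trends. Grk2 and Grk6 had a higher mean. A lower fold change of any size was seen in 7 of the 9 genes tested and in 41.2% of all genes tested. The median log2 fold change of the 9 genes tested was −0.07, beside 0.04 for all genes. Groups without overlap were seen in 4 of the 10 genes, Cxcr4, Cxcr2, Ccr1 and Cx3cr1, each lower in the libraries labelled LRP5-null. Of the 9 tested, 3 were such genes, and over all genes tested 29.7% had groups without overlap, 12.3% in this direction and 17.4% in the other.

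Cxcr2 was 776 ± 29.5 TPM in WT (SD, n = 3) and 701 ± 32.7 TPM (SD, n = 3) under the LRP5-null label, which gave −0.15 as the log2 fold change (standard error, SE, 0.064, adjusted p = 0.217, limma). The 95% interval of this difference ran from −18.5% to 0.115% on the scale of TPM + 1. Cxcr4 was 1496 ± 5.61 TPM and 1423 ± 17.0 TPM (SD, n = 3 each), a log2 fold change of −0.07 (SE 0.051, adjusted p = 0.420, limma), with an interval from −12.5% to 3.32%. For each of these receptors the exact permutation test over libraries gave a two-sided p of 0.1, which is as low as 3 libraries against 3 can go. Both kept this direction in all 18 alternative settings of the fit, but the size fell to −0.067 for Cxcr2 and −0.035 for Cxcr4 under quantile scaling, and to −0.10 and −0.034 on removal of GC and length trends. With these settings included the adjusted p ranged from 0.131 to 0.477 for Cxcr2 and from 0.235 to 0.668 for Cxcr4 (limma), and against WT replicate 3 alone, the WT library of similar ribosomal share, the log2 fold changes were −0.14 and −0.07.

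The ratio of Cxcr2 to Cxcr4 within a library is the same whatever single factor the library is scaled by, though not under quantile scaling, which changes each gene by its rank. It was 0.542, 0.499 and 0.515 in WT replicates 1 to 3, beside 0.470, 0.485 and 0.523 for LRP5-null replicates 1 to 3. The highest library labelled LRP5-null was above 2 of the 3 WT libraries, so the groups overlapped. The means were 0.518 ± 0.022 in WT and 0.493 ± 0.027 under the LRP5-null label (SD, n = 3 each), a log2 difference of −0.07 (exact permutation test, two-sided, p = 0.3). A shift in the balance of both transcripts was therefore not detected beyond the spread of the libraries.

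**Figure D2:**
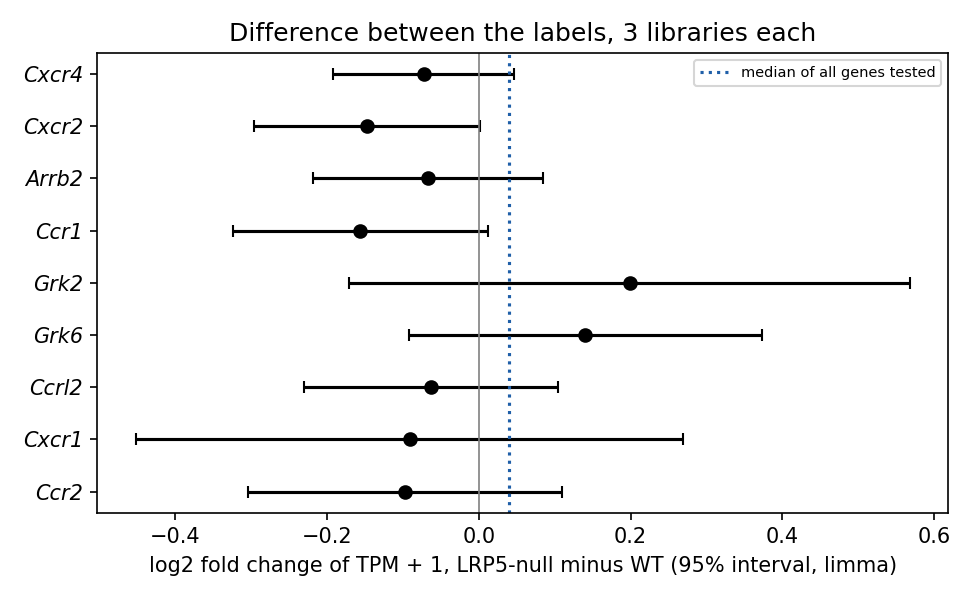
Log2 fold change of TPM + 1 between the labels for the 9 genes tested, with the 95% interval from limma (bars, 3 libraries per label), a grey line at 0 and a dotted line at the median of all genes tested, 0.04. Every interval includes 0, from the narrow one of Cxcr4 to the widest, that of Grk2.

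Ccr1, a receptor for inflammatory CC chemokines such as CCL3 and CCL6, was at 764, 744 and 660 TPM in WT replicates 1 to 3. In the libraries labelled LRP5-null it was at 655, 656 and 631 TPM, so WT replicate 3 lay next to them. The log2 fold change was −0.16 (SE 0.072, adjusted p = 0.237, limma, interval from −20.1% to 0.819%), and −0.03 against WT replicate 3 alone. Without WT replicate 3 it was −0.22 and passed the threshold (adjusted p = 0.0316, limma), and once trends with GC content and transcript length had been removed from each library it turned to 0.09. The transcript of Ccr1 had a GC content of 39.1%, the lowest of the 10 genes.

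Cxcr1, which shares ligands with CXCR2 and lies beside Cxcr2 on chromosome 1, was at 8.88, 9.49 and 14.1 TPM in WT and at 10.0, 10.0 and 9.65 TPM in the libraries labelled LRP5-null. WT replicate 3 alone stood above all other libraries, and WT replicates 1 and 2 stood below all of them. The log2 fold change was −0.09 (SE 0.15, adjusted p = 0.751, limma). It changed direction to 0.10 without WT replicate 3, and was −0.47 against WT replicate 3 alone (adjusted p = 0.152, limma) and −0.34 with the ribosomal share as a covariate (adjusted p = 0.129, limma). Ccrl2, an atypical receptor that binds the chemoattractant chemerin without signalling through G proteins, was at 42.1, 45.1 and 46.6 TPM in WT and at 41.4, 42.0 and 44.5 TPM in the libraries labelled LRP5-null. These groups overlapped, with a log2 fold change of −0.06 (SE 0.072, adjusted p = 0.616, limma).

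Ccr2 and Cx3cr1 mark classical and patrolling monocytes. Ccr2 was at 1.01, 1.14 and 1.21 TPM in WT and at 0.863, 0.976 and 1.11 TPM in the libraries labelled LRP5-null, close to the filter, with a log2 fold change of −0.10 (SE 0.088, adjusted p = 0.533, limma) that turned to 0.10 on removal of GC and length trends. Cx3cr1 was at 0.236, 0.307 and 0.346 TPM in WT and at 0.190, 0.207 and 0.198 TPM in the libraries labelled LRP5-null. It was not tested in the main comparison, and without a filter its log2 fold change was −0.11 (adjusted p = 0.266, limma). Among 17 markers of monocytes and macrophages, 0 were at 0 in all libraries and 13 were tested, of which 0 were called, 5 were higher and 1 was lower at an unadjusted p under 0.05. Over all genes tested these shares were 14.4% and 9.12%. Their summed level was 884 to 1047 TPM in WT and 905 to 966 TPM in the libraries labelled LRP5-null. Most of that sum was Ly6c2, with means of 607 and 609 TPM, and Emb, with means of 304 and 251 TPM, the 1 marker lower without overlap. The 5 markers higher without overlap were C1qb, C1qa, Fn1, Adgre1 and S100a4, opposite in direction to Ccr2 and Cx3cr1. Adgre1, which encodes the macrophage protein F4/80, was at 10.3, 11.2 and 12.6 TPM in WT and at 14.4, 14.6 and 15.6 TPM in the libraries labelled LRP5-null (log2 fold change 0.36, adjusted p = 0.103, limma). C1qb, a complement subunit of macrophages, was at 2.54 ± 0.12 TPM in WT and 3.82 ± 0.27 TPM in the libraries labelled LRP5-null (SD, n = 3 each, adjusted p = 0.0648, limma). Csf1r, the receptor that defines the lineage, overlapped, at 31.4 to 41.0 TPM in WT and 36.9 to 42.5 TPM in the libraries labelled LRP5-null. The part of monocytes in the low levels of both receptors was not tested.

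The receptor kinases and the arrestin act after the receptors. Grk2, the kinase that phosphorylates many active G protein-coupled receptors, was at 291, 236 and 381 TPM in WT replicates 1 to 3, against 327, 339 and 356 TPM in LRP5-null replicates 1 to 3. WT libraries lay on both sides of the libraries labelled LRP5-null. The log2 fold change was 0.20 (SE 0.16, adjusted p = 0.471, limma), with the widest interval of the set, from −11.1% to 48.2%. Grk6, the kinase tied to the desensitisation of CXCR4, was at 94.2, 99.6 and 119.9 TPM in WT and at 109.5, 115 and 119.9 TPM in the libraries labelled LRP5-null. Its log2 fold change was 0.14 (SE 0.099, adjusted p = 0.420, limma). Both kinases passed the threshold without WT replicate 3, at 0.38 and 0.24 (limma adjusted p = 0.0416 and 0.0472), in a fit in which 19.6% of all genes did. Grk2 was 0.034 without WT replicate 2, and Grk6 was 0.070 without WT replicate 1. Against WT replicate 3 alone they turned to −0.16 and −0.06. Their transcripts, with a GC content of 56.6% and 57.1%, were low in the libraries of low ribosomal share, WT replicates 1 and 2, and the part of that share in their difference was not separated, since all libraries of low share are WT. Arrb2, which encodes beta-arrestin 2, was at 702, 746 and 776 TPM in WT and at 687, 696 and 739 TPM in the libraries labelled LRP5-null. The groups overlapped, with a log2 fold change of −0.07 (SE 0.065, adjusted p = 0.558, limma) that turned to 0.02 under quantile scaling. On removal of GC and length trends it was −0.17 (adjusted p = 0.0599, limma).

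**Figure D3:**
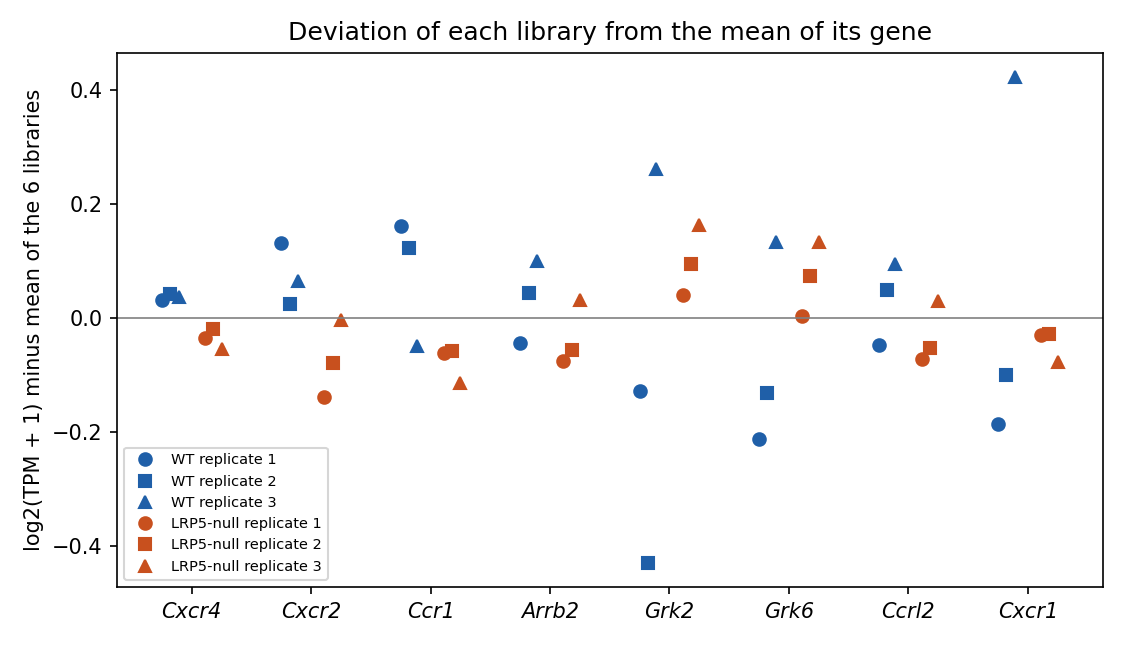
Deviation of log2(TPM + 1) in each library from the mean of its gene over all 6 libraries, for the 8 genes above 5 TPM (blue WT, orange LRP5-null, 1 marker shape per replicate number). Cxcr4 and Cxcr2 separate the labels, while WT replicate 3 (blue triangle) leaves the other WT libraries and joins or passes the libraries labelled LRP5-null for Ccr1, Grk2, Grk6 and Cxcr1.

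**Figure D4:**
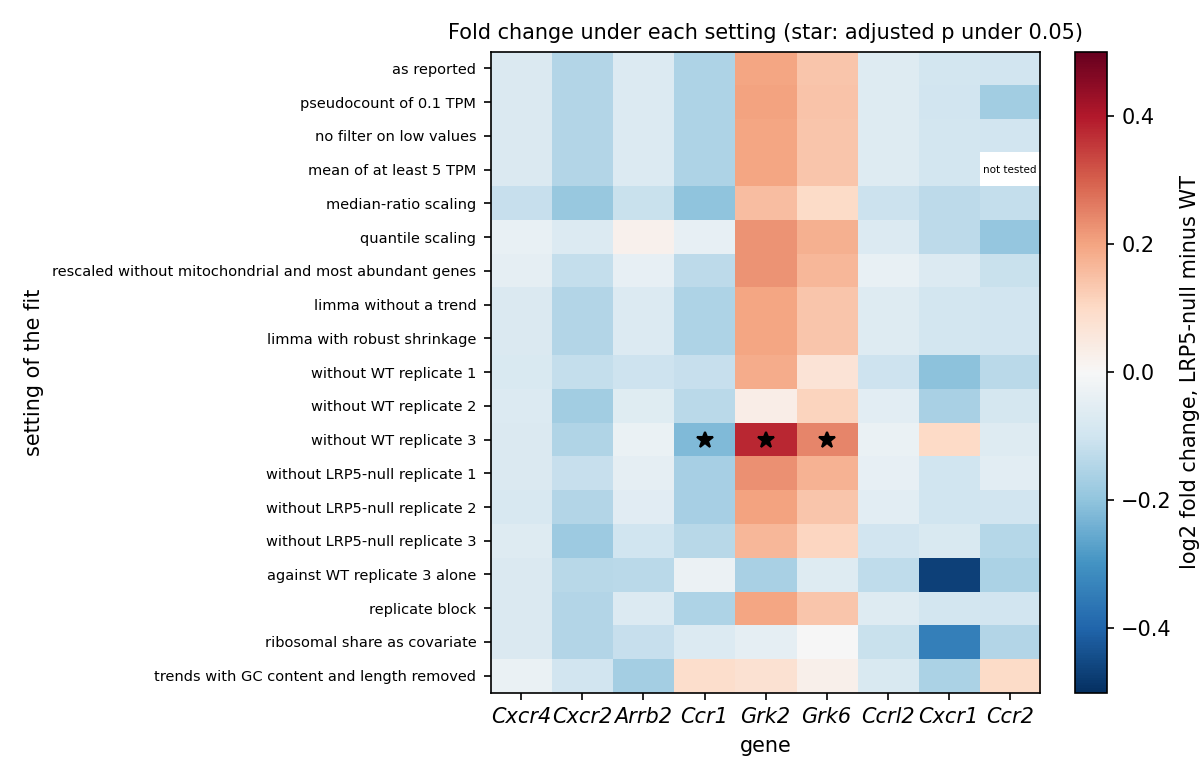
Log2 fold change of the 9 tested genes (columns) under the reported fit and 18 alternative settings (rows), blue lower and red higher in the libraries labelled LRP5-null, with a star at an adjusted p under 0.05 from limma. The 3 stars stand for Ccr1, Grk2 and Grk6 without WT replicate 3, and the columns of Cxcr4 and Cxcr2 keep 1 direction.

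Other genes of the same pathway were read from lists drawn up from general knowledge with earlier results of these libraries known. Of 17 further chemokine receptors, 0 passed the filter, and their summed level was only 3.04 to 3.41 TPM in WT and 3.10 to 3.29 TPM in the libraries labelled LRP5-null. Of 7 further receptor kinases and arrestins, 5 were tested and 0 were called. At an unadjusted p under 0.05, 2 were higher and 0 lower, beside 14.4% and 9.12% of all genes tested. Those were Grk3, the closest relative of Grk2, at 0.936 ± 0.060 TPM in WT and 1.33 ± 0.18 TPM in the libraries labelled LRP5-null (SD, n = 3 each), and Sag, the visual arrestin. Both lay near the filter (limma adjusted p = 0.155 and 0.205). Grk4 went the other way without overlap, at 3.40 ± 0.42 TPM in WT and 2.84 ± 0.17 TPM in the libraries labelled LRP5-null (SD, n = 3 each). Its log2 fold change was −0.19 (adjusted p = 0.263, limma). Beta-arrestin 1, from Arrb1, was at 19.2 ± 1.48 and 21.7 ± 1.82 TPM (SD, n = 3 each), far below Arrb2.

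Of 20 ligands of the receptors, 9 were tested and 1 was called. Cxcl2, a CXCR2 ligand that neutrophils make themselves, fell from 348, 348 and 320 TPM in WT to 248, 230 and 247 TPM in the libraries labelled LRP5-null, without overlap and with a log2 fold change of −0.48 (adjusted p = 0.0371, limma). The direction was the same in all 18 alternatives and the call was made in 7 of them, but with 1 library left out it was made only without WT replicate 3. At an unadjusted p under 0.05, 4 of the 9 ligands were lower and 0 higher, beside 9.12% and 14.4% of all genes. Besides Cxcl2 these were Ccl2, Ccl6 and Cxcl3, picked out after their values were seen, of which Ccl2, the ligand of CCR2, was at 2.86 ± 0.28 TPM in WT and 2.01 ± 0.16 TPM in the libraries labelled LRP5-null (SD, n = 3 each). Cxcl12, the CXCR4 ligand of the stroma, was low, below the filter and not tested, at 0.200, 0.207 and 0.221 TPM in WT and at 0.271, 0.353 and 0.355 TPM in the libraries labelled LRP5-null. Every library labelled LRP5-null was above every WT library. The same held for Ppbp, another of the 20 ligands below the filter and not tested. Its means were 0.734 TPM in WT and 1.14 TPM in the libraries labelled LRP5-null.

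The G proteins that carry the signal were tested in 15 of 19 cases, with 0 called, 1 higher and 4 lower at an unadjusted p under 0.05 (14.4% and 9.12% of all genes) and 6 lower without overlap (12.3% of all genes). Gnai2, the main Gi alpha subunit of leukocytes, was at 1126, 1132 and 1242 TPM in WT and at 939, 977 and 1079 TPM in the libraries labelled LRP5-null (log2 fold change −0.23, adjusted p = 0.153, limma). Gnai3 was at 255, 247 and 221 TPM in WT and at 192, 190 and 197 TPM in the libraries labelled LRP5-null (−0.32, adjusted p = 0.0910, limma). Gng2, a gamma subunit, had a log2 fold change of −0.39 (adjusted p = 0.124, limma). The median log2 fold change of all 15 was 0.08, beside 0.04 for all genes. Among 11 RGS genes, whose products speed the shut-off of G proteins, 7 were tested and 0 called. Rgs1 was at 2.41 ± 1.16 TPM in WT and 0.903 ± 0.20 TPM in the libraries labelled LRP5-null (SD, n = 3 each). Its log2 fold change was −0.79 (adjusted p = 0.121, limma), and it was the 1 tested RGS gene without overlap. Rgs12, below the filter and not tested, was higher without overlap, with means of 0.392 TPM in WT and 0.584 TPM in the libraries labelled LRP5-null.

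Of 18 effectors downstream of the receptors, 17 were tested and 0 were called. At an unadjusted p under 0.05, 0 were higher and 2 lower, beside 14.4% and 9.12% of all genes tested. A fold change of any size was higher in 11 and lower in 6 of the 17, with a median log2 fold change of 0.06, beside 0.04 for all genes. The 2 lower were Cdc42, a GTPase of cell polarity, at −0.28 (adjusted p = 0.116, limma), and Rap1a, a GTPase of integrin activation, at −0.53 (adjusted p = 0.0892, limma). Rac1, a GTPase of actin assembly, was low in WT replicates 1 and 2 (33.7 and 37.5 TPM), beside 180 TPM for WT replicate 3 and 146, 154 and 159 TPM in the libraries labelled LRP5-null. It differed more among the WT libraries than between the labels, and its log2 fold change of 1.31 (adjusted p = 0.218, limma) became 2.08 without WT replicate 3 and −0.23 against WT replicate 3 alone.

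**Figure D5:**
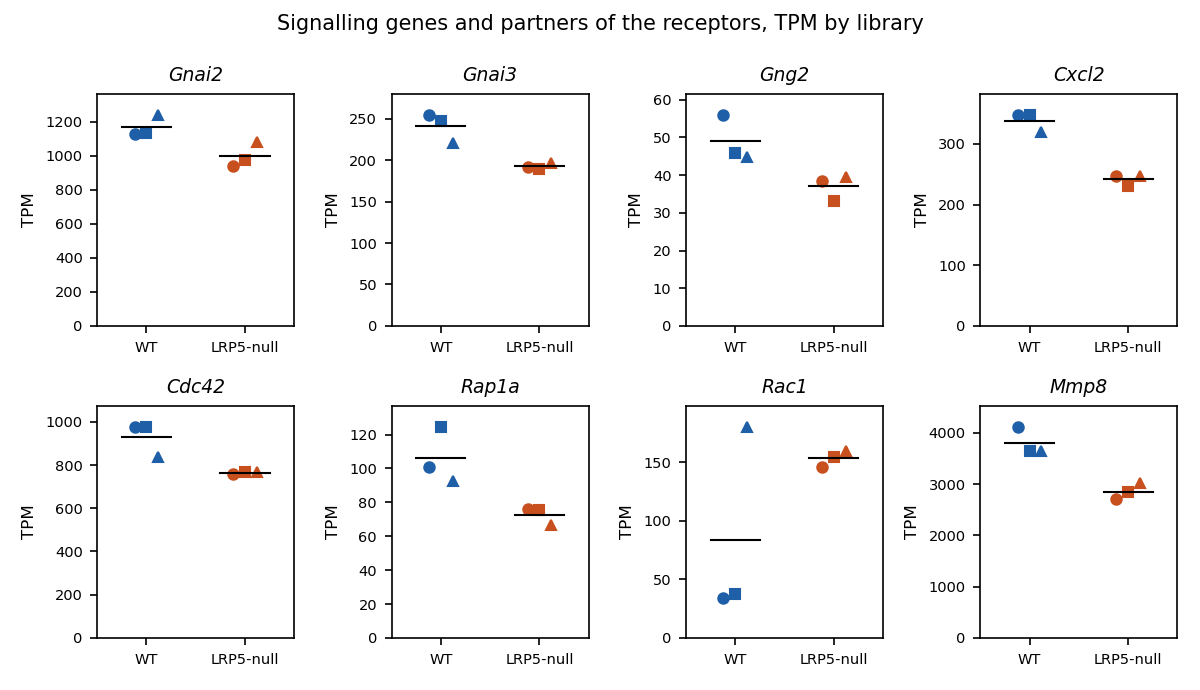
TPM by label for 8 genes of the pathway, picked from those with the smallest p in their lists. Each panel starts at 0, with 1 point per library (circle, square and triangle for replicates 1, 2 and 3) and a black bar at the mean of 3. Over all tested genes of these lists, fold changes were higher in 9 and lower in 6 G protein genes, and higher in 11 and lower in 6 effectors. For ligands the counts were 1 higher and 8 lower, and for partners 6 higher and 6 lower. Cxcl2, Gnai2, Gnai3, Gng2, Cdc42, Rap1a and Mmp8 lie lower in every library labelled LRP5-null, and Rac1 is low in WT replicates 1 and 2 only.

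Of 15 partners in retention and release, 12 were tested and 0 were called. At an unadjusted p under 0.05, 5 were higher and 3 lower, beside 14.4% and 9.12% of all genes tested. Mmp8, a granule collagenase, was at 4124, 3646 and 3651 TPM in WT and at 2703, 2846 and 3022 TPM in the libraries labelled LRP5-null, without overlap (log2 fold change −0.41, adjusted p = 0.0648, limma). Gfi1, a repressor needed for granulopoiesis, had a log2 fold change of 0.36 (adjusted p = 0.0892, limma). Csf3r, the receptor of G-CSF, the cytokine that releases neutrophils, was at 1038 ± 119 TPM in WT and 1156 ± 60.0 TPM in the libraries labelled LRP5-null (SD, n = 3 each), and its groups overlapped.

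Because Cxcr4 and Cxcr2 change with neutrophil maturation, genes of maturation were set beside them. Of 18 genes of immature neutrophils, all tested, 9 were higher and 0 lower at an unadjusted p under 0.05, with a median log2 fold change of 0.21. The shares over all genes tested were 14.4% higher and 9.12% lower, with a median of 0.04. Of 20 genes of mature neutrophils, all tested, 0 were higher and 8 lower at an unadjusted p under 0.05. The same 14.4% and 9.12% of all genes stand beside these counts, and the median of the mature list was −0.11. A fold change of any size was higher in 16 and lower in 2 of the immature genes. In the mature genes it was higher in 8 and lower in 12, beside 41.2% of all genes lower. None of either list was called. The summed levels of the immature list, which its granule genes dominate, overlapped between the labels (72502 to 79808 TPM in WT, 75501 to 79592 TPM in the libraries labelled LRP5-null). Those of the mature list did not overlap, but only by a narrow margin (41956 to 45427 TPM in WT against 41089 to 41891 TPM). Retnlg, the most abundant gene of the mature list, overlapped, with means of 20804 TPM in WT and 20446 TPM in the libraries labelled LRP5-null. Camp, a granule gene of immature cells, had a log2 fold change of 0.35 (adjusted p = 0.0648, limma) and Fpr1, a chemoattractant receptor of mature cells, one of −0.31 (adjusted p = 0.0675, limma). Ngp, the most abundant gene of the immature list, went the other way from Camp, at −0.14 (adjusted p = 0.245, limma). The part of maturation in the lower mean of Cxcr2 was not tested.

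The genes whose profile over the 6 libraries was most like that of Cxcr2, by the root mean square difference of log2(TPM + 1) after centring, were Ptpra (0.0093), Atp8b4 (0.011) and Stam2 (0.012). For Cxcr4 they were Fcgr4 (0.0098), Dennd2d (0.016) and Fam32a (0.016).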

How the data were processed

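Bone marrow neutrophil RNA came from 3 WT and 3 LRP5-null libraries from mice aged 10 weeks. The authors deposited TPM for 52636 genes, each library scaled to the same total. The methods name alignment to mm9 and the DESeq2 pipeline, and the tool that gave TPM is not given in the sources used here. A read summary deposited by the authors holds read counts per library, percent shares of reads, ratio values for end bias of coverage, a score of how coverage varies, and insert lengths. Of it, total reads and the ribosomal and intronic shares were used. Gene identifiers postdate the mm9 annotation, and the counting rule is not given in the sources used here. The methods name a stranded kit for total RNA and single-end reads, the labels an mRNA kit, and the read summary paired ends of 94 bases with 99.37% to 99.51% of reads on the correct strand.

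The 9775 genes whose mean reached 1 TPM entered a limma fit (version 3.58.1, R 4.3.3) of log2(TPM + 1) with the trend option, all 3 libraries of each label, no covariates and Benjamini-Hochberg adjustment. TPM holds no counts, so no count model was run. Members and lists were chosen with earlier results of these data known. Text names all members and, in each list, the genes called or at most the 3 with the smallest p, the most abundant marker genes, Lrp5, Lyz2, and the 3 genes most like Cxcr2 and Cxcr4. Arrb1, Csf3r, Ccl2, Ccl6, Cxcl3, Cxcl12, Ppbp, Rgs12, Cxcr3, Ccr3, C1qa, S100a4, Cd3e, Epx and Ms4a2 were added after their values were seen. A gene that the rule names is not reported here. In simulated data for 9775 genes with 200 changed, 37% of log2 changes of 0.5, 86% of 1 and 99% of 2 were recovered. False calls were 3, 12 and 11, and there were 0 calls without change. The largest log2 fold change of a tested member in the reported fit was 0.20 in size (Grk2). Recovery of changes that small was not simulated. Whether these rates hold with the GC trend that separates WT replicates 1 and 2 from the other libraries was not tested. GC content and length came from the longest coding transcript in GENCODE M1 and were removed as natural splines with 5 degrees of freedom. Alternatives are a pseudocount of 0.1, other filters and scalings, limma without a trend or robust, each library left out, WT replicate 3 alone, the replicate number as a block, the ribosomal share as a covariate and GC and length trends removed.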

Additional observations from a re-analysis of the deposited data

Results flagged for a closer look

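The share of reads in introns, from a read summary outside the expression table, averaged 10.9% for the LRP5-null label (SD 0.31) and 8.46% for WT (SD 0.62), with 3 libraries each and no overlap (two-sided p = 0.1 by exact permutation, which is as low as 3 against 3 can go). It is given because it lay above the WT level, and its part in the values of the receptors was not tested. Labels and methods differ on whether mRNA or total RNA was made into libraries, which sets what intronic and ribosomal shares measure.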

How the results depend on the processing

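The count of the 10 genes called was 0 in every setting except without WT replicate 3, so that it ranged from 0 to 3 with 1 library left out. Among 161 values of the 9 tested genes under the alternatives, 150 kept their direction and their side of the threshold, 3 passed it and 8 turned. Cxcr1 ranged from −0.21 to 0.10 with 1 library left out. Taking out GC and length trends gave 0.086 for Ccr1, 0.10 for Ccr2 and 0.10 for Rgs18. WT replicate 3 alone gave −0.16 for Grk2, −0.063 for Grk6, 0.023 for Rgs18 and −0.23 for Rac1. The ribosomal covariate gave −0.043 for Grk2 and −0.0037 for Grk6, and quantile scaling 0.020 for Arrb2. The cause was not tested. The ratio of Cxcr2 to Cxcr4 kept its direction under another pseudocount, against WT replicate 3 alone and, from −0.12 to −0.04 in log2, with 1 library left out.

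Over all genes, 52 were called (26 higher), and with 1 library left out from 2 to 1920, the highest without WT replicate 3. The count was 3 without a filter, 29 where the mean had to reach 5 TPM, 95 (68 higher) when rescaled without the most abundant genes, 6 against WT replicate 3 alone, 6 with the ribosomal covariate and 425 (157 higher) with the GC and length trends removed. With the replicate number as a block it was 4. The numbers share no stated litter or day, and the correlations of same-numbered deviations from the group means were 0.23, −0.0075 and 0.13, so the samples were not taken as paired. The block left 0 of the 10 genes called. In the lists, it ended the calls of Cxcl2 and Prg2 (limma adjusted p = 0.118 and 0.109). TPM keeps no depth, so a single value has no counting error here.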

Other observations

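Lists of other marrow cells were read beside the receptors that mark them. Eosinophils carry Ccr3, which was at 0.970, 0.997 and 0.788 TPM in WT and 1.03, 1.17 and 0.997 TPM in the libraries labelled LRP5-null, below the filter and without overlap by a narrow margin. Of 9 markers of eosinophils, basophils and mast cells, 3 were tested and 1 was called: Prg2, a granule protein of eosinophils, rose from 0.850, 1.16 and 1.05 TPM in WT to 2.91, 2.33 and 3.13 TPM in the libraries labelled LRP5-null (log2 fold change 0.91, adjusted p = 0.0341, limma). It was called in 9 of its 17 alternatives and in 2 of 6 fits with 1 library left out. Epx, the eosinophil peroxidase gene, was below the filter and also without overlap, at 0, 0.024 and 0.034 TPM in WT and at 0.141, 0.067 and 0.116 TPM in the libraries labelled LRP5-null. The list did not move as 1. Siglecf, its most abundant gene, had means of 8.27 TPM in WT and 8.47 TPM in the libraries labelled LRP5-null, with overlap. Mcpt8 also overlapped, with means of 1.81 and 1.69 TPM. Ms4a2, below the filter, was lower without overlap, with means of 0.372 and 0.234 TPM.

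Of 12 NK and T cell markers, 2 were tested and 0 called, with a summed level of 12.1 to 14.2 TPM in WT and 16.3 to 18.2 TPM in the libraries labelled LRP5-null. Most of that sum was Cd3d, a chain of the T cell receptor complex, at 9.33, 10.6 and 10.4 TPM in WT and at 14.5, 13.9 and 13.4 TPM in the libraries labelled LRP5-null (log2 fold change 0.43, adjusted p = 0.0651, limma). Cd3e, another chain of that complex, was at 0.133 ± 0.055 and 0.068 ± 0.053 TPM (SD, n = 3 each), and its groups overlapped. Cxcr3, a receptor of activated T cells, was at 0.620 ± 0.12 and 0.954 ± 0.17 TPM (SD, n = 3 each), without overlap. B cell markers (5 of 9 tested, 119 to 134 TPM summed over all libraries), erythroid markers (5 of 9 tested, 49.0 to 62.8 TPM) and dendritic cell markers (4 of 8 tested, 36.3 to 48.2 TPM) had 0 calls each. Of the 10 neutrophil markers, all were tested and 0 called.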
